A study of Mus musculus with 40 samples.

Results

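Dppa2 knockout embryonic stem cells were compared with wild type cells across all genes, in 4 RNA-seq libraries of the 40 samples of the series. The members were chosen by their genotype labels: 2 libraries labelled Dppa2KO and 2 labelled WT, both made from E14tg2a, a mouse embryonic stem cell line grown here in serum with the cytokine LIF. The same count table holds 12 libraries in all, 2 for each of 6 genotypes, and 3 of the other genotypes were used for comparison. DuxKO lacks the transcription factor gene Dux. CtbpDKO is labelled as a double knockout of the Ctbp corepressors, and DKO_Dppa2 as CtbpDKO with a Dppa2 knockout added, as the column names give it, although the title and genotype label of those 2 samples name Dux in place of Ctbp. The labels name no drug, transgene or other allele for the 4 libraries. The labels do not say how the Dppa2 gene was cut, how many clones were used or whether the 2 libraries of a genotype came from separate cultures, so p-values measure the spread between these libraries, which may be technical.

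Dppa2 is a small nuclear protein of oocytes, early embryos, germ cells and pluripotent cells that works as a pair with its neighbour and relative Dppa4. The pair binds CpG-rich promoters of developmental and germline genes, where it is known to help hold the active mark H3K4me3 and to keep DNA methylation away. It is also known as an upstream activator of Dux, the factor that switches on the 2-cell-like programme of Zscan4 and related genes in a small share of embryonic stem cells.

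The 4 libraries held between 29196060 and 36025046 counts each, and 18.97% to 27.91% of these fell on structural RNA genes, a share that overlapped between the genotypes. Counts were tested with edgeR's quasi-likelihood test in 1 fit of all 12 libraries, and a gene was called at a Benjamini-Hochberg adjusted p under 0.05 over 21193 genes. Levels are given as counts or as CPM, which are counts scaled to the library's effective size as edgeR's cpm function does. Fewer cells that express a gene and less RNA per cell cannot be told apart in these bulk libraries. The cells read as embryonic stem cells in both genotypes: all 8 markers fixed for that type (among them Pou5f1, Nanog, Sox2 and Esrrb) were counted, with summed levels of 2352.2 and 2473.26 CPM in WT and 3039.74 and 2723.53 CPM in Dppa2KO. Of 15 embryonic fibroblast (feeder) markers 7 were tested, and they summed to 23.08 and 20.93 CPM in WT and to 13.24 and 11.2 CPM in Dppa2KO, with Col1a2 at 3 counts or fewer in all 4 libraries. The part of this feeder signal in the results was not tested.

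The targeted gene was lower but still counted. Dppa2 stood at 57.3 and 60.9 CPM in WT and at 33.3 and 29.1 CPM in Dppa2KO (log2 fold change -0.92 ± 0.11 SE, adjusted p = 1.23e-04). In the CtbpDKO background it went from 89.9 and 101 CPM to 21.3 and 19.7 CPM in DKO_Dppa2 (log2 fold change -2.22 ± 0.11 SE, adjusted p = 1.32e-07), a deeper fall by the test of the difference (adjusted p = 3.52e-04). A frameshift can leave the transcript in place, and gene counts do not show which exons the reads lie in, so this checks the direction of the label only. Its partner Dppa4 was at 58.2 and 68.7 CPM in WT and 69.3 and 60.1 CPM in Dppa2KO and was not called (0.03, adjusted p = 0.897). The genes Dzip3 and Bbx, also on chromosome 16 and picked after their values were seen, were lower in both backgrounds: Dzip3, which encodes a ubiquitin ligase, by -0.86 against WT and -0.81 against CtbpDKO on the log2 scale, and Bbx by -0.71 and -0.74. The Dzip3 call against WT was lost without WT replicate 1 and without Dppa2KO replicate 1.

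In all, 3467 genes were called (16.4% of those tested), 1626 of them higher (7.67%) and 1841 lower (8.69%) in Dppa2KO. With upper quartile factors the split was 1385 higher and 2046 lower. Without WT replicate 1 it was 634 higher and 982 lower, without WT replicate 2 716 and 958, and without Dppa2KO replicate 1 819 and 927. Large differences by fitted log2 fold change were more often falls. At least a 2-fold difference was fitted for 749 of the lower genes but 201 of the higher ones. At least an 8-fold difference was fitted for 216 lower genes but 17 higher ones. For genes with few counts in a group the fitted size depends on the prior count, so these sizes are not established for each gene. In both Dppa2KO libraries 162 of the lower genes were at 3 counts or fewer, 10 of them with a mean of at least 50 counts in WT, whereas none of the 12 genes called higher from 3 counts or fewer in WT reached that mean. The number called was 1616 without WT replicate 1, 1674 without WT replicate 2, 1746 without Dppa2KO replicate 1 and 2379 without Dppa2KO replicate 2.

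**Figure D1:**
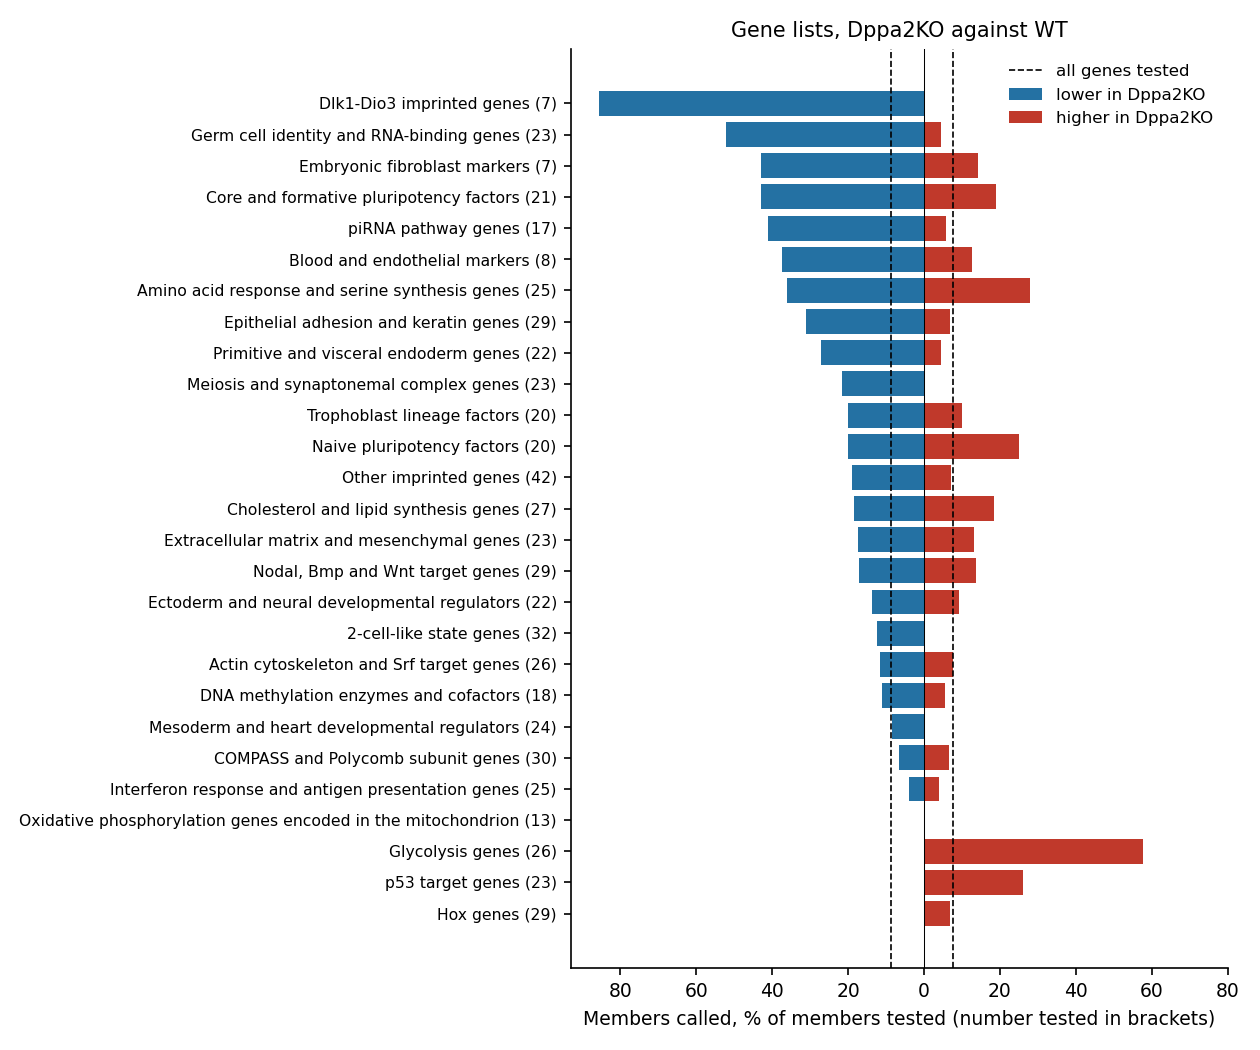
Percent of tested members called lower (blue, left) or higher (red, right) in Dppa2KO against WT for 27 gene lists, with the number tested in brackets and dashed lines at the share of all genes tested (8.69% lower, 7.67% higher). Dlk1-Dio3 genes and germ cell genes have the longest blue bars, and glycolysis genes the longest red bar.

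Of 63 tested genes of the germ cell, piRNA and meiosis lists 24 were called lower (38.1%, against 8.69% of all genes) and 2 higher, and the other members were not called. These genes serve germ cells in the gonad, and in cultured stem cells they are known to be held low by promoter DNA methylation and by a Polycomb complex that holds the E-box binding factors Mga and Max and the factor E2f6. The promoter windows of 4 of them are printed here to show how their E-boxes and CpG content differ: from 250 bases before to 50 bases after the RefSeq start (GRCm38.p6, the patch release of mm10), 5′ to 3′ on the gene's own strand, with capitals on the E-box CACGTG, a palindrome that reads the same on both strands. Ddx4 (chr13:112652261-112652560, minus strand) and Mael (chr1:166238695-166238994, minus) each hold 1 such E-box, and Dazl (chr17:50293571-50293870, minus) and Syce1 (chr7:140787805-140788104, minus) hold none.
Ddx4: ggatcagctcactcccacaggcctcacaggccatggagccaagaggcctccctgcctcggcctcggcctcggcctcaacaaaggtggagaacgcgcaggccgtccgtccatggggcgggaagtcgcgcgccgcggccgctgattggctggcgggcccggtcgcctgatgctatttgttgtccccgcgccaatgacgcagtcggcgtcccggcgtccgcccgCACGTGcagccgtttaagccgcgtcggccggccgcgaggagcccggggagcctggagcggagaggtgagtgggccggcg
Mael: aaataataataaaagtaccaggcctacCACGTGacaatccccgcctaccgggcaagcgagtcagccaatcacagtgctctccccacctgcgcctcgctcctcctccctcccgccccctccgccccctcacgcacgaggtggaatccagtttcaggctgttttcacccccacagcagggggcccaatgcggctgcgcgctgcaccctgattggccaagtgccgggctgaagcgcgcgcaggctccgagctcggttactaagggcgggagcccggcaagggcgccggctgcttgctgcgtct
Dazl: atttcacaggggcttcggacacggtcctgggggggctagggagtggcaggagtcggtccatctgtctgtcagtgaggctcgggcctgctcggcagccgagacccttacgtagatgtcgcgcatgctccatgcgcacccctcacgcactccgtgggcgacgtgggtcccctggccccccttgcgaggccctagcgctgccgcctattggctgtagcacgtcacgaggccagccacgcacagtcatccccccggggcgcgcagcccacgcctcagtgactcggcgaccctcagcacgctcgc
Syce1: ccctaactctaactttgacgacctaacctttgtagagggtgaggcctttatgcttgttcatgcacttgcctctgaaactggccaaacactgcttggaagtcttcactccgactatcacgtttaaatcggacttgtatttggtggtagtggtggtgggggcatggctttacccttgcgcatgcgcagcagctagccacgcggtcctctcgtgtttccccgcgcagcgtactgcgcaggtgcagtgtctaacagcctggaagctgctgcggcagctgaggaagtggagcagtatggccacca
The 4 windows hold 38, 24, 28 and 14 CpG dinucleotides in that order, against a median of 20 over the 12523 tested genes with a window. Of the 63 tested members of the germ cell, piRNA and meiosis lists together 55 had a window. CACGTG was present in 11 of the 20 windows of members called lower, in 6 of the 35 windows of members not called lower, in 9.77% of the windows of all tested genes and in 7.24% of all 27025 first listed windows. Over all genes CACGTG was in 11.4% of the windows of genes called lower and in 11.6% of those called higher. The median CpG number was 22 for genes called lower and 20 for those called higher. It was 14 both for genes at least 2-fold lower and for those at least 2-fold higher, and the former's median level was also low (0.97 on the log2 CPM scale, against 3.22 for all tested genes with a window). A match is a description of the letters and not evidence of binding.

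Of 23 germ cell identity genes tested 12 were called lower and 1 higher, 52.2% lower against 8.69% of all genes, and the list's median log2 fold change was -0.79 against -0.02 over all genes tested. Ddx4, the vasa RNA helicase that marks germ cells, had 146 and 131 counts in WT and 0 and 0 in Dppa2KO. It was thus at least 54.7-fold lower against a floor of 3 counts per library (adjusted p = 2.78e-07), and no other gene of the list went from over 100 counts to none. Dazl, a translation regulator of early germ cells, had 28 and 22 counts in WT and 2 and 0 in Dppa2KO, at least 9.88-fold lower (adjusted p = 0.00127). Sohlh2, a helix-loop-helix factor of spermatogonia and early oocytes, had 157 and 160 counts against 0 and 4 (log2 fold change -6.45 ± 0.53 SE, adjusted p = 7.41e-06). In these 3 genes the WT and Dppa2KO libraries did not overlap.

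Rpl10l, a testis copy of a ribosomal protein gene, stood at 10.6 ± 0.206 CPM in WT and 0.460 ± 0.0495 CPM in Dppa2KO (SD, n = 2), from 311 and 329 counts to 18 and 15 (log2 fold change -4.51 ± 0.17 SE, adjusted p = 5.43e-09). Reads of such a copy can be shared with its parent gene, and how the counting treated them is not given in the sources used here. Mael, a partner of the piRNA machinery that holds transposons down, had 74 and 89 counts against 7 and 4 (log2 fold change -4.10 ± 0.35 SE, adjusted p = 9.46e-06). Taf7l, a germ cell subunit of the general transcription machinery, fell from 14 and 10 counts to 0 and 0, at least 4.75-fold, though its call was lost without WT replicate 1 and without either Dppa2KO library. Dmrtb1 (-3.45, adjusted p = 1.80e-04), Slc25a31 (at least 3.56-fold, adjusted p = 0.00452) and Brdt (-2.48, adjusted p = 0.0101), all known from testis, were lower as well. The remaining falls were shallow, as in Tfap2c (-0.79, adjusted p = 8.53e-04) and Nr6a1 (-0.34, adjusted p = 0.0326). Tex14 (-0.44, adjusted p = 0.0523) and Kit (0.12, adjusted p = 0.402) were not called, though Tex14 was called lower under 5 of 15 other settings. The calls of Brdt and Nr6a1 were lost without WT replicate 2 and without Dppa2KO replicate 1, and that of Nr6a1 also without WT replicate 1.

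The one germ cell gene that rose was Stra8, the retinoic acid target that opens meiosis. It had 75 and 54 counts in WT and 299 and 320 in Dppa2KO (log2 fold change 2.02 ± 0.20 SE, adjusted p = 3.24e-05), and it was also above the 2 DuxKO libraries, at 39 and 38 counts.

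The piRNA pathway makes the small RNAs that silence transposons in germ cells. Of its 17 tested members 7 were called lower (41.2%, against 8.69% of all genes) and 1 higher (5.88%, against 7.67%). The helicase Mov10l1, which acts on piRNA precursors, had 7.65 and 6.88 CPM in WT against 0.413 and 0.227 CPM in Dppa2KO (log2 fold change -4.48 ± 0.22 SE, adjusted p = 4.55e-08). The chaperone partner Fkbp6 went from 22 and 14 counts to 0 and 0, at least 7.12-fold lower (adjusted p = 9.16e-04). Piwil2, one of the Piwi proteins that carry piRNAs, fell from 145 and 129 counts to 44 and 37 (log2 fold change -2.0 ± 0.21 SE, adjusted p = 5.09e-05), and kept counts in both Dppa2KO libraries. The scaffold Tdrd1 (-2.17, adjusted p = 0.00401), Gtsf1 (-2.22, adjusted p = 0.0233), Gpat2 (-1.21, adjusted p = 9.33e-04) and Tdrd5 (-1.02, adjusted p = 0.0430) were lower too, and Gtsf1 lost its call without WT replicate 1 and without either Dppa2KO library. The Tdrd5 call was lost without either WT library, without Dppa2KO replicate 2, with DESeq2 and with a replicate block, among others. The rise was in Nrbp1 (0.31, adjusted p = 0.0385), a broadly expressed gene whose call was lost under 9 of 15 other settings.

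Of 23 meiosis genes tested 5 were called lower and none higher (21.7% lower, against 8.69% of all genes). Syce1, a central element protein of the synaptonemal complex that zips paired chromosomes, had 128 and 113 counts in WT and 0 and 0 in Dppa2KO, at least 47.6-fold lower (adjusted p = 2.78e-07). Sycp1, the transverse filament of the same structure, had 56 and 70 counts against 0 and 4 (log2 fold change -5.12 ± 0.56 SE, adjusted p = 7.79e-05). Majin, which ties telomeres to the nuclear envelope, had 31 and 38 against 2 and 2 counts, at least 13.6-fold lower. Tex11 (-3.70, adjusted p = 0.00263) and Hormad1 (-1.62, adjusted p = 0.0121) completed the set, the latter call being lost without WT replicate 1 and without Dppa2KO replicate 2. Stag3, a meiotic cohesin, was at 29.7 and 31.4 CPM in WT and 31.2 and 32.1 CPM in Dppa2KO (0.05, adjusted p = 0.791) and was not called. Sycp3 was not called either (-0.41, adjusted p = 0.326).

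**Figure D2:**
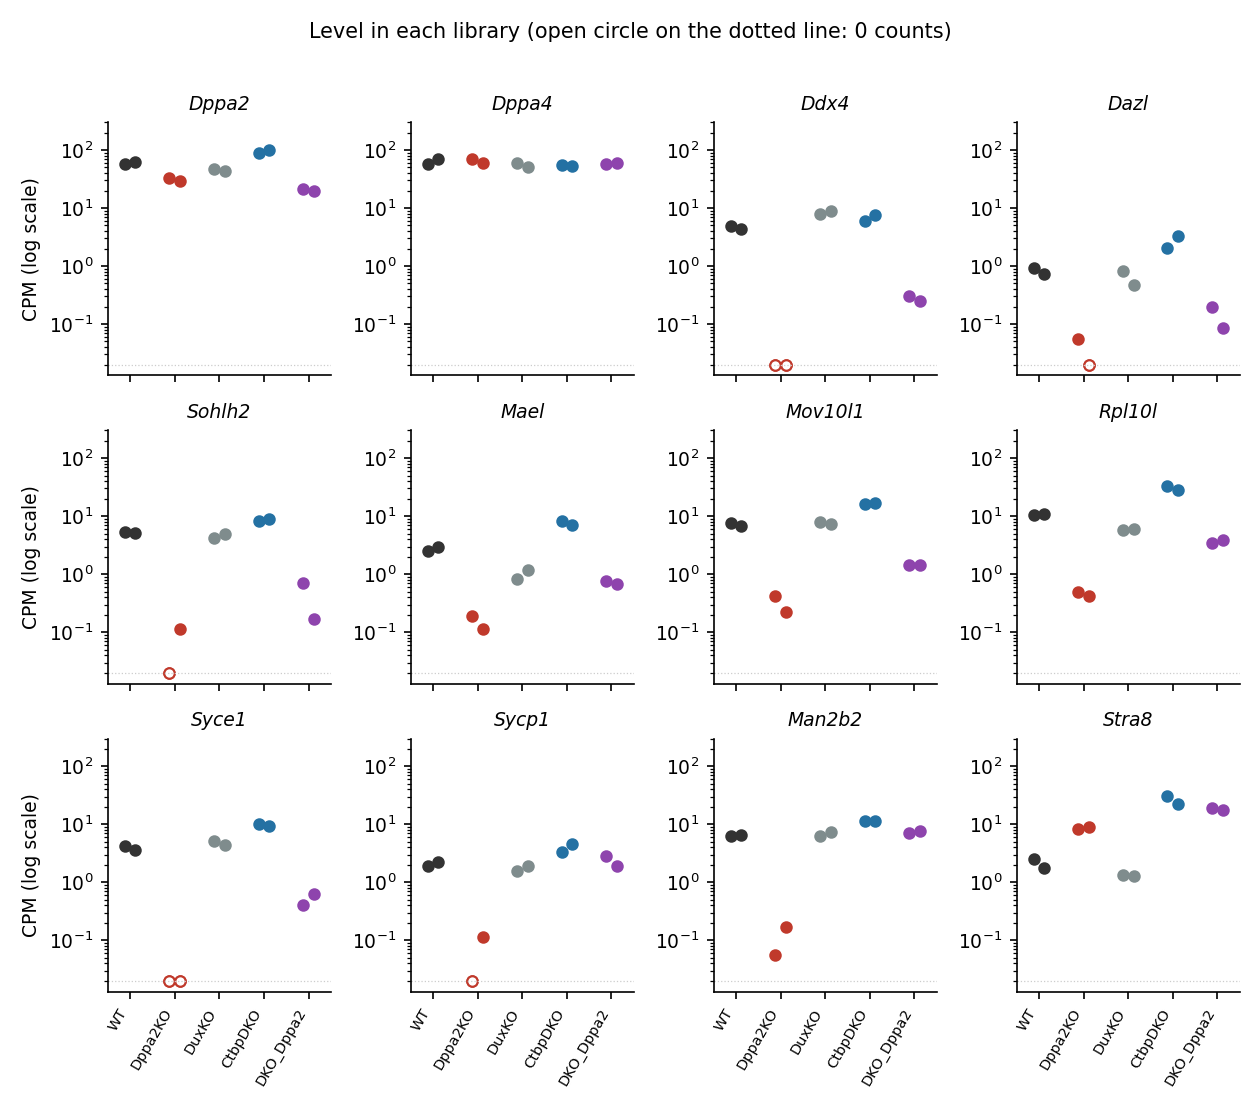
Level of 12 genes in each of 10 libraries (points, CPM on a log scale; 2 libraries per genotype; open circles on the dotted line are 0 counts). The red Dppa2KO points of Ddx4 and Syce1 lie at 0, while the purple DKO_Dppa2 points lie low but above 0, and Dppa4 overlaps between WT and Dppa2KO.

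The second group lay in the imprinted Dlk1-Dio3 region of chromosome 12. Of 7 tested genes of the list 6 were called lower (85.7%, against 8.69% of all genes) and none higher. Here the maternal copy gives long noncoding RNAs (Meg3, Rian and Mirg) that carry many miRNAs and snoRNAs, and the paternal copy gives the protein genes Dlk1, Rtl1 and Dio3. Ordered by RefSeq position, 15 tested genes in a row from Begain to Mir410 (chr12:109032181-109749458) were called lower, the longest of 13 runs of 4 or more neighbours called in 1 direction among 18245 ordered genes. The flanking genes Wdr25 (-0.17, adjusted p = 0.513) and Dio3 (0.41, adjusted p = 0.601) were not called. The run includes 8 miRNA genes, whose reads can come from longer host RNAs and do not measure the mature miRNA. Such small genes lie inside or beside longer transcripts and may share reads with them, so the 15 calls are not independent. RefSeq lists 14 mature sequences for the 8 (GRCm38.p6). Those of 4 genes, 1 arm each, are printed here, with the seed (bases 2 to 8) in capitals, to show which small RNAs the stretch encodes.
miR-382-5p: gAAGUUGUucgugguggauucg
miR-668-3p: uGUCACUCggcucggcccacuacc
miR-377-3p: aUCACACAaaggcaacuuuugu
miR-410-3p: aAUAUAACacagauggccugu
The 14 mature sequences have 14 distinct seeds, so none of them shares its seed with another.

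Meg3 (chr12:109540996-109571729) was counted at 534 and 614 in the 2 WT libraries and at 0 and 0 in Dppa2KO, at least 226-fold lower (adjusted p = 5.43e-09). Rian (chr12:109603945-109661716), host of a snoRNA array, had 1226 and 1338 counts against 6 and 2 (log2 fold change -8.51 ± 0.21 SE, adjusted p = 6.11e-11), and Mirg (chr12:109734981-109749458), host of the miRNA array, 548 and 582 against 2 and 0 (at least 223-fold lower). All 3 maternal RNAs were thus near or at 0 in both Dppa2KO libraries and well counted in both WT libraries. Rtl1, a retrotransposon-derived placental gene whose RNA is antisense to part of this stretch, had 332 and 356 counts against 9 and 15 (log2 fold change -5.07 ± 0.35 SE, adjusted p = 3.22e-06). The library kit is stranded but the counting setting is not given, so reads of Rtl1 and of the opposite transcript cannot be told apart. The paternal ligand gene Dlk1 fell from 40 and 51 counts to 22 and 10 (log2 fold change -1.74 ± 0.40 SE, adjusted p = 0.0110) and Begain from 75 and 103 to 43 and 46 (log2 fold change -1.24 ± 0.34 SE, adjusted p = 0.0255). The calls of Dlk1 and Begain were lost without WT replicate 2 and without Dppa2KO replicate 2, and that of Begain also without Dppa2KO replicate 1. The 8 miRNA precursors and the snoRNA gene DQ267102 had between 4 and 31 counts in each WT library and 0 in each Dppa2KO library. Their calls were less firm than those of Meg3, Rian, Mirg and Rtl1, which held with any 1 of the 4 libraries left out. Those of Mir3070b, Mir1193 and Mir485 were lost without any 1 of the 4, those of Mir1906-1, DQ267102 and Mir377 without WT replicate 2 and without either Dppa2KO library, and those of Mir382, Mir668 and Mir410 without Dppa2KO replicate 1. With no low-count filter Mir1193 and Mir485 were not called, nor was Mir485 with a replicate block.

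**Figure D3:**
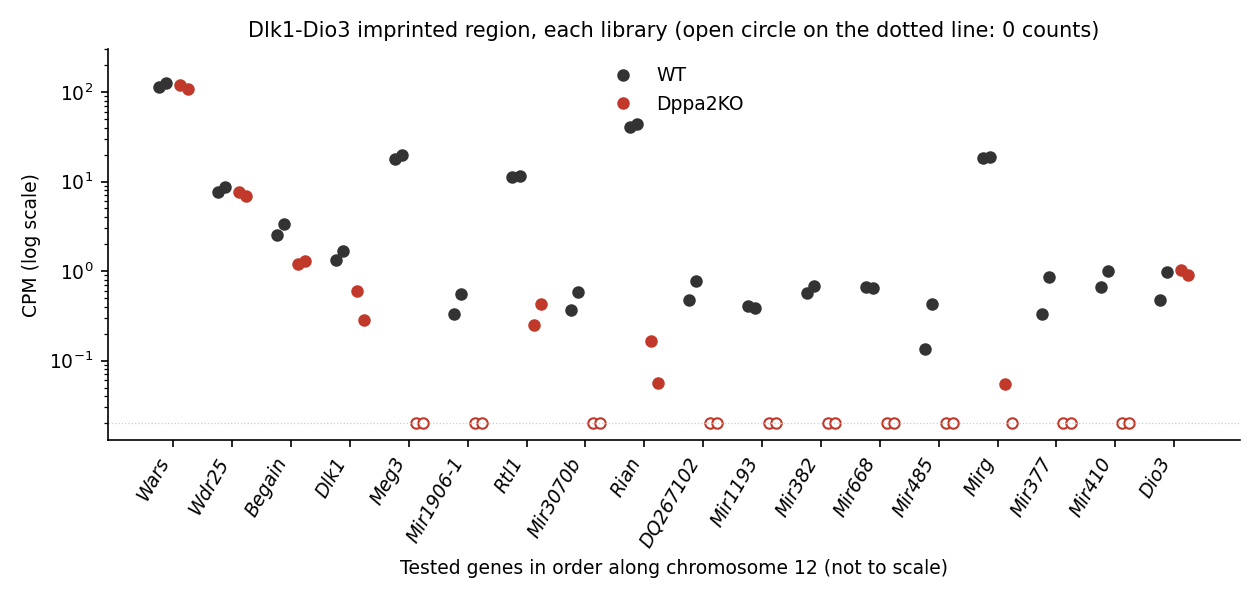
Level of 18 tested genes in order along the Dlk1-Dio3 region in each WT (black) and Dppa2KO (red) library (CPM on a log scale; open circles on the dotted line are 0 counts; spacing is not to scale). Wars, Wdr25 and Dio3 overlap or nearly overlap between genotypes, and the 15 genes between them are lower in both Dppa2KO libraries.

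Imprinted genes elsewhere moved less and both ways. Of 42 tested 8 were lower (19.05%, against 8.69% of all genes) and 3 higher (7.14%, against 7.67%). The growth brake Cdkn1c (29.2 to 12.4 CPM, -1.24, adjusted p = 3.49e-05), Phlda2 (-1.37), the growth receptor Igf2r (-0.78), Impact (-0.87) and the adaptor Grb10 (341 to 226 CPM, -0.59, adjusted p = 4.34e-04) fell, and Ddc (1.05), Peg10 (0.48) and Sfmbt2 (0.44) rose on the log2 scale. The falls of Grb10, Igf2r, Cdkn1c, Phlda2 and Impact were also called in DKO_Dppa2 against CtbpDKO, whereas Peg10 fell there (-0.60, adjusted p = 0.00276). The 3 rises lost their calls without WT replicate 2 and without Dppa2KO replicate 2, and those of Peg10 and Sfmbt2 also without WT replicate 1.

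The 2-cell-like programme, a known output of Dppa2, was barely counted in WT. Dux (Duxf3 in the table) had 1 and 0 counts in WT and 0 and 0 in Dppa2KO, and Pramel7 0 and 2 against 0 and 0. Of 32 tested genes of the list 22 were at 3 counts or fewer in all 4 libraries. Zscan4c, a marker of the 2-cell-like state, had 12 and 3 counts in WT and 0 and 0 in Dppa2KO (at least 2.98-fold lower, adjusted p = 0.0337), and Zscan4f 15 and 7 against 0 and 0 (adjusted p = 0.00718). Together with Zscan4-ps2 and Zscan4-ps3 these were the 4 members called, all lower (12.5% of the 32 tested, against 8.69% of all genes). They are near-identical copies that can share reads, and the calls of Zscan4c and both pseudogenes were lost when single libraries were left out. Most members passed the low-count filter through other groups of the table, such as CtbpDKO, so no count of falls is read from that background. There Zscan4c went from 323 and 476 counts to 0 and 0 (at least 83.5-fold lower, adjusted p = 8.05e-05) and Duxf3 from 40 and 24 to 0 and 0.

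Outside these groups the deepest falls among named genes were in scattered genes. Zfp629, a zinc finger gene, had 89 and 106 counts in WT and 0 and 0 in Dppa2KO (at least 38.4-fold lower, adjusted p = 1.22e-05), and Arhgef38 74 and 69 against 0 and 0 (at least 28.2-fold, adjusted p = 8.98e-05). H2ac1, a histone gene of the testis, had 250 and 213 counts against 0 and 5 (log2 fold change -6.69 ± 0.41 SE, adjusted p = 4.47e-07). The neighbours Repin1 (14.6 and 16.3 CPM against 0.385 and 0.425, -5.24, adjusted p = 4.86e-08) and Zfp775 (5.87 and 4.92 against 0.0551 and 0.113, -5.94, adjusted p = 1.64e-07), both zinc finger genes, lie in a run of 4 neighbours called lower on chromosome 6 (chr6:48593883-48633688). Man2b2, a lysosomal mannosidase gene, had 190 and 203 counts against 2 and 6 (log2 fold change -5.81 ± 0.28 SE, adjusted p = 4.55e-08). Rtl8b (at least 23.4-fold) and Trim67 (at least 20.8-fold) were at 3 counts or fewer in both Dppa2KO libraries as well. Mbd1, which encodes a methyl-CpG binding protein, fell from 8.56 and 7.14 to 1.24 and 1.65 CPM (log2 fold change -2.44 ± 0.18 SE, adjusted p = 3.22e-06), with the same size of fall in the other background (-2.41 ± 0.19).

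Rises were largest in genes of low level in WT. They were taken among called genes with a mean of at least 50 counts in the higher group, no overlap between the WT and Dppa2KO libraries and no predicted-gene symbol. Cplx2, a regulator of synaptic vesicle release, had 14 and 14 counts in WT and 552 and 2788 in Dppa2KO (log2 fold change 6.66 ± 0.83 SE, adjusted p = 2.37e-04), so the 2 Dppa2KO libraries differed widely from each other. Slc1a1, a glutamate and cysteine transporter, had 12 and 44 counts against 646 and 552 (log2 fold change 4.17 ± 0.83 SE, adjusted p = 0.00473), and the call was lost without WT replicate 1. Both also varied among 4 other WT libraries of the series, which were normalised in a separate table: Cplx2 from 0.201 to 31.4 CPM and Slc1a1 from 1.16 to 20.1 CPM. Steadier rises were seen in Sh3rf2 (0.436 and 0.326 to 6.63 and 4.48 CPM, 3.85, adjusted p = 1.73e-04), whose other WT libraries held 0.482 to 0.984 CPM, in the arginine methyltransferase gene Prmt8 (1.78 and 2.25 to 7.51 and 6.98 CPM, 1.84, adjusted p = 0.00104) and in the autophagy receptor gene Calcoco2 (1.01 and 1.76 to 9.06 and 8.25 CPM, 2.64, adjusted p = 7.60e-06). The other WT libraries held 10.5 to 11.4 CPM of Calcoco2, above both Dppa2KO libraries, so the rise holds against these 2 WT libraries only. Galr2, Cend1, Fam214a, Pdgfrb, Epor, Neu3, Pnmal2, Cnga3 and the mitochondrial tRNA mt-Tk rose by 1.78 to 2.23 on the log2 scale. Of these, Pdgfrb, Neu3 and Cnga3 kept their calls with any 1 of the 4 libraries left out. The mt-Tk call was lost without any 1 of them, Epor without WT replicate 1 and without either Dppa2KO library, Galr2 without WT replicate 1 and without Dppa2KO replicate 1, Cend1 without either WT library, and Fam214a and Pnmal2 without WT replicate 2.

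Among abundant transcripts many glycolysis genes rose. Of 26 tested genes 15 were called higher and none lower (57.7% higher against 7.67% of all genes), with a median log2 fold change of 0.43. The glucose transporters Slc2a1 (129 and 138 to 321 and 299 CPM, log2 fold change 1.21 ± 0.08 SE, adjusted p = 1.14e-06) and Slc2a3 (351 and 346 to 562 and 598 CPM, log2 fold change 0.74 ± 0.08 SE, adjusted p = 1.00e-04) and the lactate exporter Slc16a3 (0.81, adjusted p = 6.30e-05) rose. So did enzymes along the path: Aldoc (1.37), Aldoa (0.43), Tpi1 (0.69), Pgk1 (0.62), Pgam1 (0.62), Pkm (0.43) and lactate dehydrogenase Ldha (669 and 712 to 1193 and 1065 CPM, log2 fold change 0.71 ± 0.09 SE, adjusted p = 3.09e-04). Bnip3, a mitophagy receptor that is a known hypoxia target like several of these genes, rose by 1.16. The Pkm call was lost without WT replicate 1 and without Dppa2KO replicate 1. Eno1 was not called (0.23, adjusted p = 0.118), though it was called higher under 1 of 15 other settings. In the other background (DKO_Dppa2 against CtbpDKO) 4 members were called higher (15.4%, against 5.75% of all genes) and 6 lower (23.1%, against 9.67%). The test of the difference called 14 of 26 as less raised there (5% of all genes were called in that direction). Against DuxKO, which shares the Dppa2KO libraries, 14 of 26 were higher (53.8%, against 9.38% of all genes) and none lower.

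**Figure D4:**
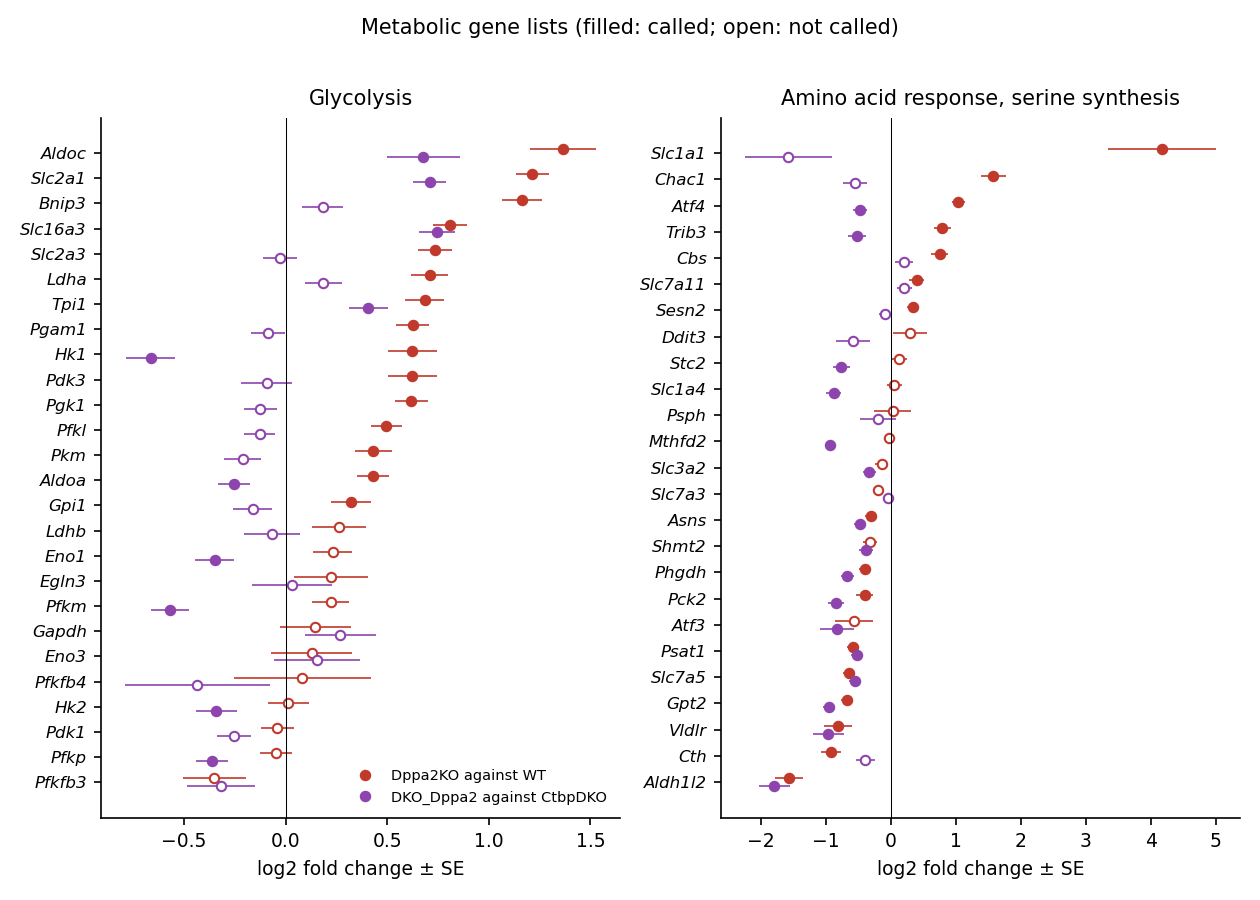
Log2 fold change ± SE of 26 glycolysis genes (left) and 25 amino acid response and serine synthesis genes (right), for Dppa2KO against WT (red) and DKO_Dppa2 against CtbpDKO (purple); filled points were called. Most red glycolysis points lie right of 0 and most purple ones near or left of it, while Psat1, Slc7a5, Phgdh and Asns lie left of 0 in both.

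Genes of the amino acid response split. The transcription factor Atf4 (169 and 176 to 373 and 336 CPM, log2 fold change 1.04 ± 0.10 SE, adjusted p = 3.63e-05) and its known stress targets Chac1 (1.58, adjusted p = 1.80e-04) and Trib3 (0.79, adjusted p = 0.00171) were higher. Cbs, Slc7a11, Sesn2 and the transporter Slc1a1 rose too, 7 of 25 in all (28%, against 7.67% of all genes). Lower were 9 of 25 (36%, against 8.69% of all genes), several of them in serine synthesis and 1-carbon metabolism: Phgdh (-0.40, adjusted p = 0.0140), Psat1 (239.8 and 236 to 174 and 144 CPM, -0.58, adjusted p = 0.00121), Aldh1l2 (-1.56, adjusted p = 4.03e-04), Asns (-0.31, adjusted p = 0.0394) and the amino acid transporter Slc7a5 (262 and 261 to 172 and 162 CPM, -0.65, adjusted p = 3.32e-04). In DKO_Dppa2 against CtbpDKO 16 of 25 were lower (64%, against 9.67% of all genes) and none higher. Atf4 and Trib3 were among the lower ones there (-0.47, adjusted p = 0.00763 and -0.52, adjusted p = 0.0190), and 8 genes were called lower in both comparisons. Against WT the calls of Slc7a11, Sesn2, Phgdh and Asns were lost without WT replicate 1 and without Dppa2KO replicate 2, those of Slc7a11 and Sesn2 also without Dppa2KO replicate 1, and those of Slc7a11 and Asns also without WT replicate 2. Of 23 p53 targets 6 were higher (26.1%, against 7.67% of all genes) and none lower. Among them were Ddit4 (1.08, adjusted p = 5.63e-04), Bbc3, the killer protein Puma (0.89, adjusted p = 0.00111), and Bax (0.58, adjusted p = 0.00247). All 3 of these also rose in the other background, where 12 of 23 were higher (52.2%, against 5.75% of all genes) and 1 lower (4.35%, against 9.67%).

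Of the core pluripotency factors Pou5f1 and Nanog were called higher. Pou5f1, the Oct4 gene, stood at 735 and 757 CPM in WT and 1123 and 929.5 CPM in Dppa2KO (log2 fold change 0.46 ± 0.10 SE, adjusted p = 0.00982) and Nanog at 154 and 153 against 196 and 183 CPM (log2 fold change 0.30 ± 0.08 SE, adjusted p = 0.0220), both calls being lost without either WT library and without Dppa2KO replicate 1. Sox2 (0.08, adjusted p = 0.569), Zfp42 (-0.03, adjusted p = 0.899) and Esrrb (0.17, adjusted p = 0.259) were not called. The naive factors Tbx3 (67.7 to 140.2 CPM, 1.05, adjusted p = 8.68e-06), Klf2 (0.49), Klf4 (0.46) and Gbx2 (0.61) rose, as did Dppa5a (557 and 479.7 to 863 and 857 CPM, 0.73, adjusted p = 0.00188). Dppa5a lies in a run of 5 neighbours called higher on chromosome 9 with Gsta4, Dppa5b, Dppa5c and Ooep. Dppa5a, Dppa5b and Dppa5c may share reads, and how the counting treated such reads is not given, so their calls may not be independent. Tcl1 (-1.04, adjusted p = 3.63e-05), Pecam1 (-0.88), Stat3 (-0.73) and Nr5a2 (-0.41) fell. Of 20 naive factors 5 rose (25%, against 7.67% of all genes) and 4 fell (20%, against 8.69%). Of 21 core and formative factors together 9 fell (42.9%, against 8.69% of all genes) and 4 rose (19.05%, against 7.67%), Pou5f1 among the latter. The Nodal inhibitors Lefty2 (30.5 to 12.3 CPM, -1.31, adjusted p = 2.89e-05) and Lefty1 (-0.79), Otx2 (-1.04, adjusted p = 3.61e-04), Pou3f1 (-0.88), Sox3 (-1.07), Zic2 (-0.80) and Lin28b (-0.78) were lower, and Nodal itself (0.48) was higher. Without WT replicate 1 the calls of Klf4 and Gbx2 were lost, without WT replicate 2 those of Nr5a2 and Nodal, without Dppa2KO replicate 1 those of Nodal and Sox3, and without Dppa2KO replicate 2 those of Klf4 and Nr5a2.

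In the DNA methylation machinery 1 of 18 genes rose (5.56%, against 7.67% of all genes) and 2 fell (11.1%, against 8.69%), Mbd1 among them. The de novo enzyme Dnmt3b had 81.6 and 90.2 CPM in WT and 59.5 and 65.6 CPM in Dppa2KO (log2 fold change -0.46 ± 0.09 SE, adjusted p = 0.00434) and lost its call without WT replicate 2, and the 4 other WT libraries held 264 to 377 CPM. Dnmt3a rose by 0.30 (adjusted p = 0.0266), a call lost without either WT library and without Dppa2KO replicate 2. The cofactor Dnmt3l (-0.00, adjusted p = 0.998), the maintenance pair Dnmt1 (-0.11, adjusted p = 0.457) and Uhrf1 (0.08, adjusted p = 0.533) and the demethylases Tet1 (-0.31, adjusted p = 0.151) and Tet2 (-0.25, adjusted p = 0.120) were not called. Tet1 was called lower under 2 of 15 other settings, and ran from -0.61 to -0.05 with single libraries left out. Among COMPASS and Polycomb subunit genes 2 of 30 rose and 2 fell (6.67% each way), below the 7.67% and 8.69% of all genes. E2f6, a subunit of the germline-silencing Polycomb complex, was lower (-0.47, adjusted p = 0.0186, lost without any 1 of the 4 libraries), and its partners L3mbtl2 (0.17, adjusted p = 0.234) and Pcgf6 (0.48, adjusted p = 0.417) were not called. Pcgf6 was called higher under 1 of 15 other settings.

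In the primitive and visceral endoderm list 6 of 22 fell (27.3%, against 8.69% of all genes) and 1 rose (4.55%, against 7.67%). The matrix collagens Col4a1 (52.2 to 27.9 CPM, -0.90, adjusted p = 8.73e-04) and Col4a2 (-0.95), the uptake receptors Cubn (-1.38) and Amn (-4.39), the adaptor Dab2 (-1.25, adjusted p = 6.49e-04) and Lama1 (-0.38) were lower, while Lamc1 was not called (0.17, adjusted p = 0.242). All 6 also fell in DKO_Dppa2 against CtbpDKO. Against WT the calls of Cubn, Amn and Lama1 were lost without WT replicate 1, and those of Cubn and Lama1 also without Dppa2KO replicate 1. Of 29 epithelial genes 9 fell (31.0%, against 8.69% of all genes) and 2 rose (6.90%, against 7.67%). The adhesion molecule Cdh1 was at 146 ± 1.85 CPM in WT and 102 ± 5.49 CPM in Dppa2KO (-0.52, adjusted p = 0.00221). The claudin Cldn6 (-2.10, adjusted p = 3.24e-05), the splicing factor Esrp1 (-0.93) and Krt19 (-3.24, adjusted p = 0.00108) were lower as well. The neural regulator Pax6 fell from 12.6 and 15 to 4.38 and 4.14 CPM (-1.70, adjusted p = 4.20e-05). Of 24 tested mesoderm regulators 2 were lower (8.33%, against 8.69% of all genes) and none higher. Hand1 (11 and 0 against 0 and 4 counts) and Nkx2-5 (10 and 6 against 4 and 2) were too low to call. Actin and Srf target genes (3 of 26 lower, 2 higher) and matrix and mesenchymal genes (4 of 23 lower, 3 higher) moved both ways. The actin motor gene Myh9 (109 to 42 CPM, -1.38, adjusted p = 1.10e-06) and the matrix genes Fbn1 (-1.44, adjusted p = 1.76e-04) and Mmp2 (-1.34, adjusted p = 6.28e-05) fell. Fbn1 and Mmp2 are also on the feeder marker list above. Of its 7 tested members 3 were lower (42.9%, against 8.69% of all genes) and 1 higher (Pdgfrb, 1.87), which is 14.3%, against 7.67%. Tpm2 (0.69), Cnn2 (0.35), Loxl2 (0.57), Mmp14 (0.50) and Fbln1 (0.48) rose. Of these rises Cnn2 and Mmp14 lost their calls without any 1 of the 4 libraries, Loxl2 and Fbln1 without WT replicate 1 and without Dppa2KO replicate 1, and Tpm2 without WT replicate 2. Transcripts that lost most CPM were the noncoding RNA Malat1 (-0.50, adjusted p = 0.0475), Dido1 (320.3 to 164 CPM, -0.97, adjusted p = 2.66e-05), Ankrd11 (-0.63, adjusted p = 9.20e-04), Ppp1r10 (-0.88, adjusted p = 4.20e-05) and Rest (-0.36, adjusted p = 0.0134), with Larp1, Sfpq and Taf1d. The Malat1 call was lost without any 1 of the 4 libraries and with a replicate block. Those of Rest, Sfpq and Taf1d were lost without either WT library and without Dppa2KO replicate 1, and that of Larp1 without WT replicate 2 and without Dppa2KO replicate 1. Dido1 and Ppp1r10 stood at 141 to 191 and 117 to 134 CPM in the 4 other WT libraries, and at 151 and 177 and 124 and 118 CPM in the 2 Dppa2KO libraries.

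The knockout was read a second time in cells that lack Ctbp1, a comparison that shares no library with the first. In CtbpDKO and DKO_Dppa2 the Ctbp1 counts were 1 and 2 and 4 and 0, against 1911 and 2109 in WT, while Ctbp2 was still counted in CtbpDKO (43.6 and 43.8 CPM, against 211 and 215 in WT). DKO_Dppa2 against CtbpDKO called 3268 genes (15.4%), 1218 higher (5.75%) and 2050 lower (9.67%), and between 1272 and 2058 with any 1 of its 4 libraries left out. Of the 1841 genes lower in Dppa2KO 569 were also lower there, 30.9% of the first list and 27.8% of the second, where 9.67% of all genes were lower, and 48 were called the opposite way. The shared number lay between 281 (without DKO_Dppa2 replicate 2) and 465 with single libraries left out. Of the 1626 higher genes 317 were higher again (19.5% of the first list and 26% of the second, against 5.75% of all genes) and 125 were lower. Of the deepest losses by fitted log2 fold change, 52 of the 122 genes at least 32-fold lower against WT were called lower in the second background. Of the 8 genes at least 32-fold higher by fitted value, 1 was called higher there. For genes with 0 or few counts in a group the fitted size depends on the prior count, so a 32-fold difference is not established for each.

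Of the 24 members of the 3 lists called lower against WT 16 were called lower in DKO_Dppa2 too and 2 were called higher. Ddx4 went from 199 and 274 counts in CtbpDKO to 6 and 6 in DKO_Dppa2 (log2 fold change -4.62 ± 0.29 SE, adjusted p = 1.58e-06), Mov10l1 from 541 and 613 to 29 and 34 (log2 fold change -3.54 ± 0.18 SE, adjusted p = 1.32e-07) and Syce1 from 327 and 335 to 8 and 15 (log2 fold change -4.19 ± 0.25 SE, adjusted p = 9.15e-07). Ddx4 and Syce1 thus kept a few counts in DKO_Dppa2 and none in Dppa2KO. The 2 that rose there were Tfap2c and Gpat2 (1.18, adjusted p = 3.82e-05 and 0.70, adjusted p = 0.0156), and Sycp1 was not called (-0.73, adjusted p = 0.153). The 6 lower genes of the Dlk1-Dio3 list were lower again, but from a start that was already low: Meg3 had 64 and 68 counts in CtbpDKO and 6 and 3 in DKO_Dppa2 (log2 fold change -3.19 ± 0.32 SE, adjusted p = 6.35e-05), and Rian 152 and 174 and 11 and 16 (log2 fold change -2.93 ± 0.20 SE, adjusted p = 1.51e-06).

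**Figure D5:**
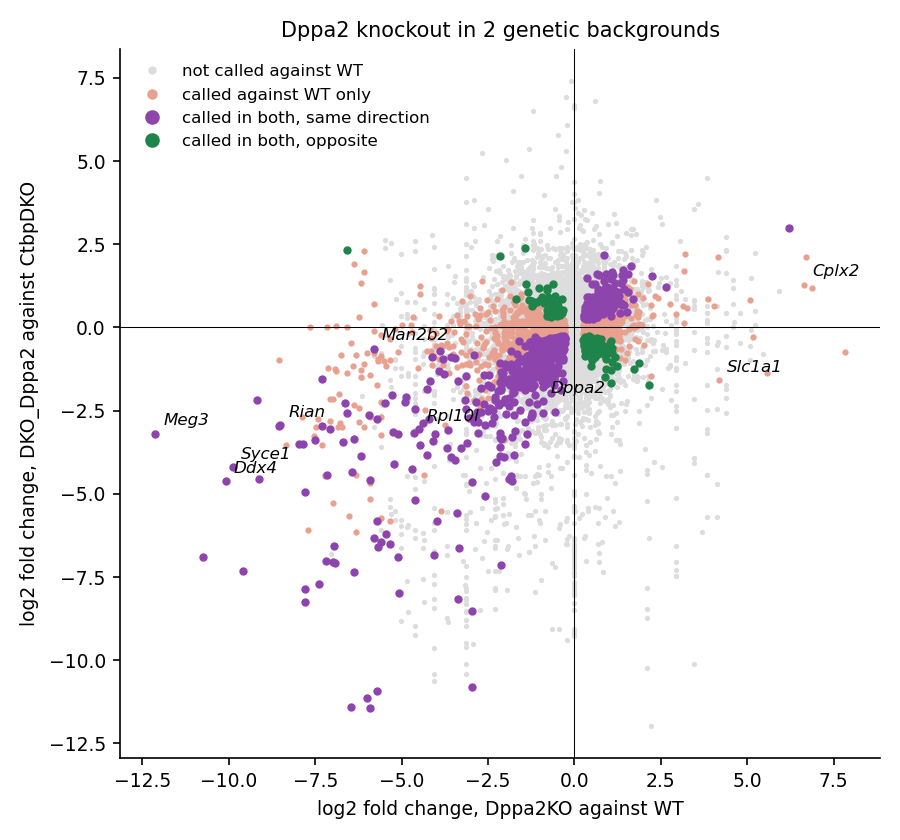
Log2 fold change of 21193 genes for Dppa2KO against WT (x axis) and DKO_Dppa2 against CtbpDKO (y axis), comparisons within 1 fit that have no library in common. The 569 genes lower and 317 higher in both are purple, those called in opposite directions (48 and 125) green; values of genes with 0 counts depend on the prior count.

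The difference between the 2 knockouts was itself called for 1745 genes (8.23%), 685 with a higher value in the CtbpDKO background (3.23%) and 1060 with a lower one (5%). With upper quartile factors the split was nearly even, 785 higher and 835 lower. Man2b2, a deep loss against WT, was at 7.06 and 7.63 CPM in DKO_Dppa2 against 11.3 and 11.5 CPM in CtbpDKO (log2 fold change -0.63 ± 0.16 SE, adjusted p = 0.0204), and the 2 effects differed by 5.17 ± 0.35 (adjusted p = 9.21e-06). Rtl8b (-0.82, adjusted p = 0.174 there) and Dido1 (-0.04, adjusted p = 0.812) were not called in the second background. Trim67 rose there (2.34, adjusted p = 0.0299), from 3 and 7 counts to 12 and 21.

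Set against the other single knockout of the table, Dppa2KO differed from DuxKO in 3884 genes (18.3%), 1988 higher (9.38%) and 1896 lower (8.95%). This comparison shares the Dppa2KO libraries with the first and does not repeat it, but it shows where DuxKO cells stood. Ddx4 had 236 and 265 counts in DuxKO, Syce1 151 and 135, Mov10l1 232 and 224, Meg3 315 and 337 and Rian 1226 and 1262, so none of these 5 was near 0 there as in Dppa2KO, although Meg3 had fewer counts than in WT. In the 4 other WT libraries these genes were counted too, with 6.43 to 7.14 CPM of Ddx4, 3.59 to 7.04 CPM of Syce1 and 14.9 to 30.3 CPM of Meg3. Other losses had fewer counts in DuxKO than in WT, a difference not tested here: Mael had 24 and 35 counts, Majin 2 and 8, Fkbp6 3 and 4 and Arhgef38 14 and 10. The 4 Zscan4 genes called above were at 0 in both DuxKO libraries as in Dppa2KO.

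Chromosome 8 had the lowest median of the chromosomes. In its 611 genes whose mean level reached 2 on the log2 CPM scale, the median log2 fold change of Dppa2KO against WT was -0.131, against 0.052 over 10818 such genes of all chromosomes, and 23.1% of them were called lower against 10.9%. Both Dppa2KO libraries lay below the WT mean there, by medians of -0.107 and -0.148 on a log2 scale with 1 CPM added, while both DuxKO libraries lay above it, by 0.355 and 0.343. In DKO_Dppa2 against CtbpDKO the chromosome 8 median was -0.012. The copy number of the chromosome was not measured here. Among the genes above, Trim67, Ankrd11, Slc7a5, Cdh1, Col4a1, Col4a2, Mmp2, Klf2 and Zfp42 lie on it. Of these Klf2 rose, Zfp42 was not called and the others were called lower against WT. Without the genes of chromosome 8, 1698 genes were called lower, of 20113 tested.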

How the data were processed

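Total RNA of E14tg2a cells was sequenced with a stranded kit, per the labels' protocols. The submitters' processing notes name Trim Galore, HISAT2, featureCounts and mm10, with no order, version or strand setting. The deposited values are raw counts per gene for 55276 genes in 12 libraries (19944644 to 36025046 counts), and 21193 genes passed edgeR's filterByExpr. Counts were scaled with TMM factors and tested with edgeR's quasi-likelihood F test (edgeR 4.0.16, limma 3.58.1, R 4.3.3) on a design of 6 groups with 6 residual degrees of freedom, prior count 0.125, and Benjamini-Hochberg adjustment over all genes tested. SE is the absolute log2 fold change over the square root of F. Where a group was at or under the floor of 3 counts per library (0.0826 to 0.1006 CPM in the 4 libraries), folds of named genes are bounds against that floor and cover counting error only. Numbers of genes by size of difference use the fitted log2 fold change instead, which can exceed such a bound. On simulated data for Dppa2KO against WT (21193 genes) the test found 83 of 100 genes changed 2-fold and 98 of 100 changed 4-fold, and called 18 unchanged genes. The changed genes were drawn only from those above a minimum mean CPM, and the simulated spread was that fitted to these data. The rates found therefore do not cover the genes of lowest count. The genes named are a fixed set of 22, 15 deepest falls and 15 steepest rises, and the 10 that gained and 10 that lost most CPM. From each list up to 6 called members per direction and the 2 most counted that were not called were added. The falls and rises were taken among called genes whose higher group averaged at least 50 counts and whose WT and Dppa2KO libraries did not overlap. Genes with predicted-gene symbols were left out of these rankings, and mitochondrial and structural RNA genes out of the CPM ranking. Members and lists were chosen with earlier results of these data known. Genes picked after their values were seen are Dzip3, Bbx, Wdr25, Ctbp1, Ctbp2, Pcgf6, L3mbtl2, Asns, Brdt, Cdh1, Dmrtb1, Lin28b, Mael, Nr6a1, Pgk1, Phgdh, Tdrd5, Tpi1, Sycp3, the other members of named runs, the miRNA genes and DQ267102. Of the tested genes 18245 had a RefSeq position. Alternatives were DESeq2 1.42.0, other scaling and filters, fewer groups, a replicate block and leaving out single libraries. Bisulfite libraries were not used here.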

Additional observations from a re-analysis of the deposited data

Results flagged for a closer look

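The effect of the Dppa2 knockout differed between the CtbpDKO and the WT background for 24 of the named genes searched. The test was edgeR's quasi-likelihood test of the difference itself, at an adjusted p under 0.05. Only the fixed set of named genes, the deepest falls and the steepest rises were searched. Genes named only as members of a gene list were not searched, and 14 of 26 glycolysis genes were also called in this test. Values are the log2 fold change in the CtbpDKO background minus that in the WT background, so a positive value is a smaller fall or a larger rise there. For genes with 0 counts in Dppa2KO the fitted size depends on the prior count. Dppa2 itself differed by -1.30. Among the Dlk1-Dio3 RNAs the difference was 8.95 for Meg3, 7.0 for Mirg and 5.58 for Rian. Among germ cell genes it was 5.47 for Ddx4, 5.70 for Syce1, 4.38 for Sycp1 and -2.53 for Stra8. Other deep losses differed by 8.93 (Trim67), 5.93 (Rtl8b), 5.17 (Man2b2), 3.30 (Zfp775), 3.26 (H2ac1) and 2.10 (Repin1). Genes that rose against WT differed by -5.75 (Slc1a1), -2.99 (Sh3rf2), -1.78 (Pdgfrb), -1.52 (Prmt8), -1.43 (Calcoco2) and -1.41 (Cnga3). In the DNA methylation machinery the difference was -1.0 for Dnmt3a, -0.57 for Dnmt1, -0.42 for Uhrf1 and 0.90 for Dnmt3l. Causes of these differences were not tested.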

How the results depend on the processing

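Requiring a 2-fold change left 950 called genes for Dppa2KO against WT, 973 for DKO_Dppa2 against CtbpDKO, 709 for the difference, 1454 against DuxKO and 216 lower in both Dppa2 comparisons. With single libraries left out the numbers ran from 1616 to 2379, 1272 to 2058, 773 to 1310, 2331 to 2790 and 281 to 465 in that order, on fewer samples. Replicate numbers did not pair the samples (correlation of deviations -0.097 between WT and Dppa2KO), and a replicate block gave 3082, 2829, 1354, 3517 and 501. DESeq2 called 3446 genes for Dppa2KO against WT, and no low-count filter 4059. The chromosome 8 median minus that of all genes was -0.173 at a minimum mean log2 CPM of 5 and -0.192 to -0.172 with single libraries left out. Signs turned only for genes that were not called. With single libraries left out Dppa4 ran from -0.08 to 0.15 (0 with upper quartile factors), Duxf3 from -3.17 to 0, Pramel7 from -4.04 to 0, Zfp42 from -0.17 to 0.11, Dnmt3l from -0.06 to 0.06 (0 with DESeq2, with RLE factors and with no filter), Hand1 from -5.45 to 3.84 and Dio3 from -0.02 to 1.03. Causes were not tested.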

Other observations

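Of 27 cholesterol and lipid synthesis genes 5 were higher and 5 lower (18.5% each way, against 7.67% and 8.69% of all genes). The sterol sensor gene Insig1 (-0.68, adjusted p = 0.00178) fell, and the synthesis genes Fdps (0.63, adjusted p = 0.00111) and Mvk (0.69, adjusted p = 0.00865) rose. The Mvk call was lost without WT replicate 2 and without Dppa2KO replicate 2. Of 29 Hox genes 2 were called higher (6.90%, against 7.67% of all genes) and none lower, Hoxa7 (31 and 43 counts in WT and 116 and 100 in Dppa2KO, adjusted p = 0.0156) and Hoxd11 (16 and 15 and 57 and 45, adjusted p = 0.0399). The Hoxd11 call was lost with DESeq2 and without any 1 of the 4 libraries, and that of Hoxa7 without WT replicate 1 and without Dppa2KO replicate 1. None of the 13 respiratory chain genes encoded in the mitochondrion was called by edgeR's quasi-likelihood test. Among 25 interferon and antigen presentation genes 1 was higher and 1 lower (4% each way, below the shares of all genes). Of 20 trophoblast factors 4 were lower (20%, against 8.69% of all genes) and 2 higher (10%, against 7.67%). Tead4 (-0.60, adjusted p = 0.00674) and Krt8 (-0.53, adjusted p = 0.0177) were among the lower ones. The Tead4 call was lost without WT replicate 2, and that of Krt8 without WT replicate 1 and without Dppa2KO replicate 2. Of 29 genes that respond to Nodal, Bmp or Wnt 4 were higher (13.8%, against 7.67% of all genes) and 5 lower (17.2%, against 8.69%). Id2 (-0.92, adjusted p = 0.00908) fell, a call lost without WT replicate 2 and without Dppa2KO replicate 2. Of 8 tested blood and endothelial markers 3 were lower (37.5%, against 8.69% of all genes) and 1 higher (12.5%, against 7.67%). The list summed to 23.95 and 22.75 CPM in WT and 22.79 and 14.89 CPM in Dppa2KO.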
